A study of Mus musculus with 6 samples.

Results

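The 7 genes that encode the major proteins of mouse milk were followed in fetal thymic stroma. They were chosen by name, as the 5 caseins (Csn1s1, Csn2, Csn1s2a, Csn1s2b and Csn3), whey acidic protein (Wap) and α-lactalbumin (Lalba). They were selected on results of these same samples, since the rise of Csn2 with RANKL and the low value of Csn1s2a without Jmjd6 were already known. All 7 were found among the 22513 gene entries of the expression table, each as an entry of its own. Thymic lobes of C57BL/6 fetuses had been kept in organ culture for 4 days with 2-deoxyguanosine, which depletes haematopoietic cells and was applied to every group. WT and Jmjd6-/- lobes were then left unstimulated (1 library per genotype) or stimulated for 4 days with recombinant RANKL (2 libraries per genotype). Jmjd6-/- embryos came from crosses of heterozygous mice, so that every cell of the lobe lacked the gene. The methods of the study call the paired libraries separate samples, while the design text names technical duplication. Neither says that they came from separate cultures, so p-values measure the spread between these libraries, which may be technical. With an unreplicated unstimulated arm, the response to RANKL rests on 1 library per genotype before stimulation.

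Caseins are the phosphoproteins that carry calcium in milk, and in the mammary gland their genes are switched on by prolactin acting through Stat5. Milk protein genes are also read in the thymic medulla. There, medullary thymic epithelial cells (mTECs) transcribe genes of many peripheral tissues, in part under the transcriptional regulator Aire, so that developing T cells that recognize these self-antigens can be removed. RANKL, which signals through the receptor RANK, drives mTECs to mature and to express Aire, and it is also known for its part in the growth of mammary alveoli. Jmjd6 is a lysyl hydroxylase that acts on splicing factors.

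The values are FPKM, that is, counts of fragments scaled by the length of the transcript and the depth of the library. The depth of a library, estimated from the steps between its low values, ranged from 15800000 to 30850000 fragments. In sum these estimates were 1.56 times what the study's number of reads allows, if that number counts both reads of a pair. Fragment counts, counting intervals and limits below use these larger estimates unless a lower depth is named. Jmjd6 was at 25.9 to 32.5 FPKM in the 3 WT libraries and at 1.32 to 1.96 FPKM in the 3 Jmjd6-/- libraries. Among the 12587 genes averaging 1 FPKM or more, the WT pair under RANKL agreed less closely (median absolute log2 difference 0.28) than the Jmjd6-/- pair (0.08). All 8 mTEC markers and all 5 cortical epithelial markers were detected in every library. The mTEC markers summed to 1168 to 1656 FPKM in WT and to 2013 to 2094 FPKM in Jmjd6-/- stroma, most of it Krt5, and the cortical markers to 4698 to 7993 and 5684 to 7159 FPKM. The 4 mesenchymal markers summed to 322 to 366 FPKM in WT and to 172 to 178 FPKM in Jmjd6-/- stroma, and the 3 endothelial markers to 9.29 to 20.1 and 2.89 to 6.50 FPKM. Transcripts of haematopoietic cells remained, as their 4 markers summed to 6.45 to 9.26 FPKM in WT and to 6.84 to 8.87 FPKM in Jmjd6-/- stroma. Most of this was Ptprc and Itgam. The part of these differences in the genotype comparisons below was not tested.

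Csn2, which encodes β-casein, was by far the most abundant milk protein transcript. It stood at 0.239 FPKM in unstimulated WT stroma and at 0.369 FPKM in the unstimulated Jmjd6-/- library. Stimulation brought it to 102 and 99.3 FPKM in the WT libraries and to 38.7 and 33.1 FPKM in the Jmjd6-/- libraries. Every stimulated library thus lay far above both unstimulated ones. Both stimulated WT libraries lay above both stimulated Jmjd6-/- libraries, an order seen in 22.7% of all entries. In WT stroma with RANKL, Csn2 ranked 722 and 836 from the top among the 22513 entries, against 13996 without RANKL. In Jmjd6-/- stroma with RANKL it ranked 2380 and 2816.

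The unstimulated values rested on an estimated 7 fragments in WT and 6 in Jmjd6-/- stroma, and the stimulated ones on 604 to 2801 fragments per library. From these, Csn2 was 426-fold higher with RANKL in WT stroma (95% exact binomial counting interval 206 to 1059) and 91.4-fold higher in Jmjd6-/- stroma (41.9 to 249). Such intervals cover counting error only, and PCR copies are counted as if they were separate molecules. On the log2(FPKM + 0.1) scale the change with RANKL over both genotypes was 7.24 (SE 0.39), which the added constant makes smaller for values this low. Under RANKL the Jmjd6-/- mean was 35.9 ± 4.01 FPKM against 100.6 ± 1.90 FPKM in WT (SD, n = 2 each), a log2 difference of -1.49 (SE 0.14). In lobes of mixed cells, fewer cells with a transcript and less transcript per cell cannot be told apart.

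**Figure D1:**
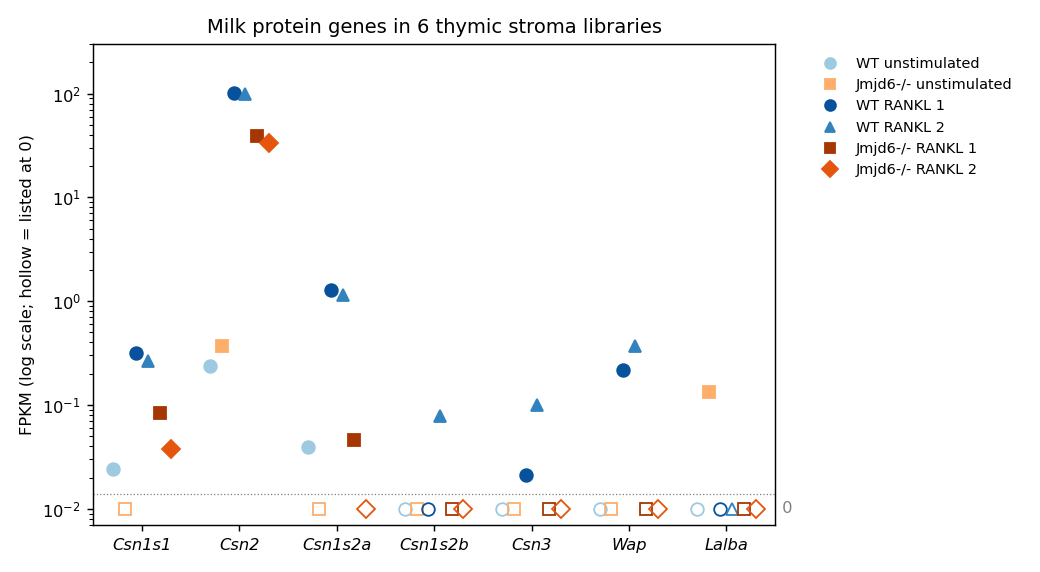
FPKM on a log axis for the 7 milk protein genes, with 1 point per library and hollow points for values listed at 0. Csn2 was near 100 FPKM in WT and between 33.1 and 38.7 FPKM in Jmjd6-/- stroma with RANKL, Csn1s2a was above 1 FPKM in the 2 WT RANKL libraries alone, and the remaining genes stayed below 0.4 FPKM.

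Csn1s2a, which encodes an αS2-type casein, was the second most abundant of the 7 in stimulated WT stroma and all but missing from Jmjd6-/- stroma. It was listed at 0.0394 FPKM in unstimulated WT and at 0 in unstimulated Jmjd6-/- stroma. With RANKL it was at 1.28 and 1.15 FPKM in the WT libraries and at 0.0458 and 0 FPKM in the Jmjd6-/- libraries. The 2 stimulated WT libraries stood alone, and the 4 other libraries were all listed below 0.05 FPKM. With up to 3 fragments unseen, a listed 0 for Csn1s2a allows 0.250 FPKM in unstimulated and 0.207 FPKM in stimulated Jmjd6-/- stroma. The means under RANKL were 1.21 ± 0.0865 FPKM in WT and 0.0229 ± 0.0324 FPKM in Jmjd6-/- stroma (SD, n = 2 each). These values rest on few reads, an estimated 44 fragments over the 2 WT RANKL libraries, 1 fragment over the 2 Jmjd6-/- RANKL libraries and 1 fragment in unstimulated WT. In WT stroma Csn1s2a was 28.7-fold higher with RANKL (counting interval 4.89 to 1160), while in Jmjd6-/- stroma 1 fragment against 0 allows no statement on RANKL. Between the stimulated genotypes Csn1s2a differed by -3.44 on the log2 scale, Jmjd6-/- relative to WT (SE 0.35). Both Jmjd6-/- values lie below the added 0.1, so the constant shapes this estimate and its SE. The estimate was -5.69 with 0.01 added to FPKM and -1.11 with 1 added.

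Csn1s1, which encodes αS1-casein, was expressed at a lower level, again with its highest values in stimulated WT stroma. Without RANKL it was at 0.0242 FPKM in WT and listed at 0 in Jmjd6-/- stroma. With RANKL it was at 0.315 and 0.265 FPKM in WT and at 0.0836 and 0.0377 FPKM in Jmjd6-/- stroma. Both stimulated WT libraries were above both stimulated Jmjd6-/- libraries, with 17 estimated fragments against 3. This order was seen in 5 of the 7 milk protein genes and in 22.7% of all entries, and nothing is read from it for genes chosen with this comparison known. The log2 change with RANKL was 1.16 (SE 0.38) and the log2 ratio of genotypes under RANKL was -1.29 (SE 0.36), and neither passed an adjusted p of 0.05. With 0.01 in place of 0.1 added to FPKM, the change with RANKL passed.

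The 4 other genes were at or near the limit of detection. Up to 3 fragments may go unseen behind a listed 0. Wap, a protease inhibitor-like protein of whey, was at 0.217 and 0.371 FPKM in the WT RANKL libraries, about 5 fragments in all, and listed at 0 in the other 4 libraries. In the Jmjd6-/- RANKL libraries a 0 for Wap allows up to 0.310 and 0.402 FPKM, so that a genotype difference was not detectable at this depth (0 fragments against 5, an upper bound of 118% of WT). Csn3, which encodes the κ-casein that stabilizes the casein micelle, had 0.0213 and 0.1001 FPKM in the WT RANKL libraries, about 2 fragments, and was listed at 0 elsewhere. Csn1s2b, the other αS2-type gene, had 1 fragment in all, 0.0775 FPKM in the second WT RANKL library. Lalba, the regulatory subunit of lactose synthase, was listed at 0 in all 4 stimulated libraries, and its 0.132 FPKM in unstimulated Jmjd6-/- stroma is about 1 fragment. No fold change is given for these genes.

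Of the 7 genes, 3 averaged 0.1 FPKM or more over the 6 libraries and entered the fit over 15894 genes. Csn1s1, at a mean of 0.121 FPKM, was just inside this limit and Wap, at 0.0981 FPKM, just outside. Csn1s1 and Csn1s2a entered only through the WT RANKL libraries, so higher values in that group were fixed by the filter. Higher values with RANKL passed an adjusted p of 0.05 for 1 of the 3 (Csn2), beside 10.5% of all genes tested. Lower values in Jmjd6-/- stroma under RANKL passed for 2 of the 3 (Csn2 and Csn1s2a), beside 1.82% of all genes tested. Since the genes were chosen with both comparisons known, these counts describe them and carry no weight of their own. Without the second WT RANKL library both genotype calls were lost, with log2 ratios of -1.51 for Csn2 and -3.51 for Csn1s2a. Without either Jmjd6-/- RANKL library the call on Csn2 was lost and that on Csn1s2a was kept, and without a filter on low values both were lost. A smaller response to RANKL in Jmjd6-/- stroma, tested with limma, passed for 0 of the 3 genes and for 0% of all genes (2 of the 3 and 546 of all genes at an unadjusted p under 0.05). The estimate for Csn2 was -1.96 on the log2 scale (SE 0.25), and that for Csn1s2a -2.96 (SE 0.61).

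The share of the WT level left in Jmjd6-/- stroma under RANKL is given for the 3 measurable casein genes as a description, since the low value of Csn1s2a was among the reasons for the choice of genes. Csn2 kept 35.9% of the WT level (counting interval 33.9% to 38.1%). Csn1s2a kept 2.45% (0.0606% to 14.4%), and Csn1s1 kept 19.0% (3.57% to 65.7%). The intervals of Csn2 and Csn1s2a lay apart, and that of Csn1s1 reached over both. With any 1 of the 4 stimulated libraries left out, the share of Csn2 was between 32.7% and 38.4% (lower bound at least 30.03%). The upper bound for Csn1s2a was at most 25.5% in those settings. As the low value of Csn1s2a was known when the genes were chosen, the gap between these intervals is no test of a difference. Within a library, which removes any scaling between libraries, the FPKM of Csn2 was 79.9 and 86.1 times that of Csn1s2a in WT stroma with RANKL. In the first Jmjd6-/- library it was 846 times as high, and in the second Csn1s2a was at 0. The log2 ratio of Csn1s2a to Csn2, with 0.1 added to each, was -6.21 and -6.31 for the WT pair, and -8.06 and -8.37 for the Jmjd6-/- pair. For Csn1s1 to Csn2 the WT pair gave -7.94 and -8.09 and the Jmjd6-/- pair -7.72 and -7.91, adjoining ranges whose means differed by 0.20. The added 0.1 exceeds Csn1s1 itself in both Jmjd6-/- libraries (0.0836 and 0.0377 FPKM) and lifts its ratio there. Whether Csn1s1 follows Csn2 therefore cannot be read from these values. An exact permutation test of 2 against 2 libraries cannot go below p = 0.3333, so these ratios are given as a description. With 1 added to FPKM, a constant near the WT level of Csn1s2a, the difference in its ratio to Csn2 turned from -1.95 to 0.35.

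**Figure D2:**
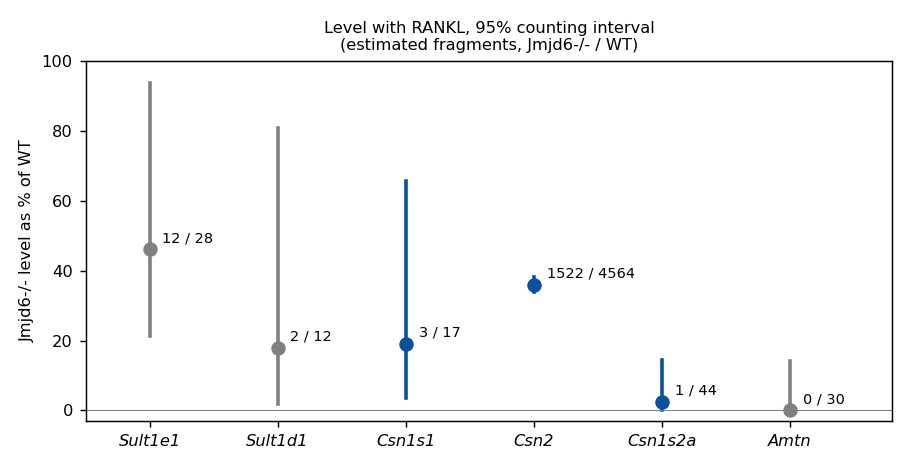
Level in Jmjd6-/- stroma as a percentage of WT under RANKL, on a linear axis, with bars for the 95% exact counting interval and the estimated fragments (Jmjd6-/- / WT) beside each point, blue for casein genes and grey for neighbouring genes. Csn2 (35.9%) has a narrow interval that lies above those of Csn1s2a (2.45%) and Amtn (0 of 30 fragments).

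The 5 casein genes lie together on chromosome 5 (mm10) in the order Csn1s1, Csn2, Csn1s2a, Csn1s2b and Csn3. Csn1s1 spans chr5:87666224-87682574 and Csn2, on the opposite strand, chr5:87692624-87699421. Csn1s2a follows at chr5:87774567-87788797 and Csn1s2b at chr5:87808122-87824421. Csn3 was assigned by the authors' assembly to a long locus, chr5:87908588-87979351, together with 1700066N21Rik on the other strand. As the library kit does not mark strand while the strand was set in the quantification, reads of these 2 genes could not be told apart with certainty. Wap lies at chr11:6635483-6638649 and Lalba at chr15:98480400-98482683. None of the 7 transcripts shares a run of 101 bases, the read length, with a transcript of another gene.

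Around the cluster, from 500 kb before Csn1s1 to 500 kb after Csn3, the table holds 18 other entries, and 10 of them were at 0 in all 6 libraries. Above 0 in a WT RANKL library were 8 of the 18, in a Jmjd6-/- RANKL library 5, and in an unstimulated library 1 (Ambn, an enamel matrix gene, with about 1 fragment). Over all 22513 entries, 18241 and 17897 were above 0 in the WT RANKL libraries and 17488 and 17117 in the Jmjd6-/- RANKL libraries. Without RANKL it was 17108 in WT and 16454 in Jmjd6-/- stroma. As the whole table went the same way and depth differed between libraries, nothing is read from these counts. Only 2 of the 18 neighbours entered the fit. Sult1e1, an estrogen sulfotransferase whose locus begins at -90.3 kb from the start of Csn1s1, was at 0 in both unstimulated libraries, at 0.571 and 0.488 FPKM in WT and at 0.258 and 0.268 FPKM in Jmjd6-/- stroma with RANKL. It rose with RANKL (log2 change 2.26, SE 0.32, adjusted p = 0.00568), and its genotype ratio under RANKL was -0.79 (SE 0.31, adjusted p = 0.259), or 46.2% of WT by fragments (21.4% to 93.8%). Amtn, which encodes the enamel protein amelotin and lies 709.9 kb after the start of Csn1s1, was at 0.662 and 0.822 FPKM in WT stroma with RANKL and at 0 in the other 4 libraries. Its log2 ratio of genotypes was -3.07 (SE 0.34, adjusted p = 0.028), and by fragments, with 30 in WT and 0 in Jmjd6-/-, at most 14.1% of the WT level was left. Amtn, like Csn1s2a and Csn1s1, entered the fit only through the WT RANKL libraries, and Sult1e1 only through the stimulated ones. A difference in the group that let them in was therefore fixed by the filter. The change of Amtn with RANKL over both genotypes was 1.53 (SE 0.67, adjusted p = 0.184). The wide interval of Sult1e1 overlapped that of Csn2, and the interval of Amtn overlapped that of Csn1s2a. As the filter chose these 2 neighbours, nothing is read from this for the region.

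The other neighbours gave few fragments. Sult1d1, a further sulfotransferase, was at 0.122 and 0.102 FPKM in WT and at 0.0282 and 0.0186 FPKM in Jmjd6-/- stroma with RANKL, and at 0 without it. Sult1b1 was at 0.05002 and 0.0580 FPKM in WT and at 0.0262 and 0 FPKM in Jmjd6-/- stroma with RANKL. Odam, Prol1 and the entry of Ugt2a1 and Ugt2a2 did not pass 0.0913 FPKM in any library. At 0 throughout were Ugt2b37, Ugt2a3, Ugt2b38, 4930432K09Rik, Gm7337, 1700066N21Rik, Cabs1, Smr3a, Smr2 and Gm7714. Within 100 kb of Wap, 1 of 3 genes tested, Ramp3, was lower with RANKL (log2 change -0.64, SE 0.16, adjusted p = 0.0443), beside 4.11% of all genes, a call that was lost without any 1 of 3 of the 4 stimulated libraries. Within 100 kb of Lalba, none of 4 genes tested passed in either comparison by limma (at an unadjusted p under 0.05, 1 was higher with RANKL and 0 differed between genotypes).

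**Figure D3:**
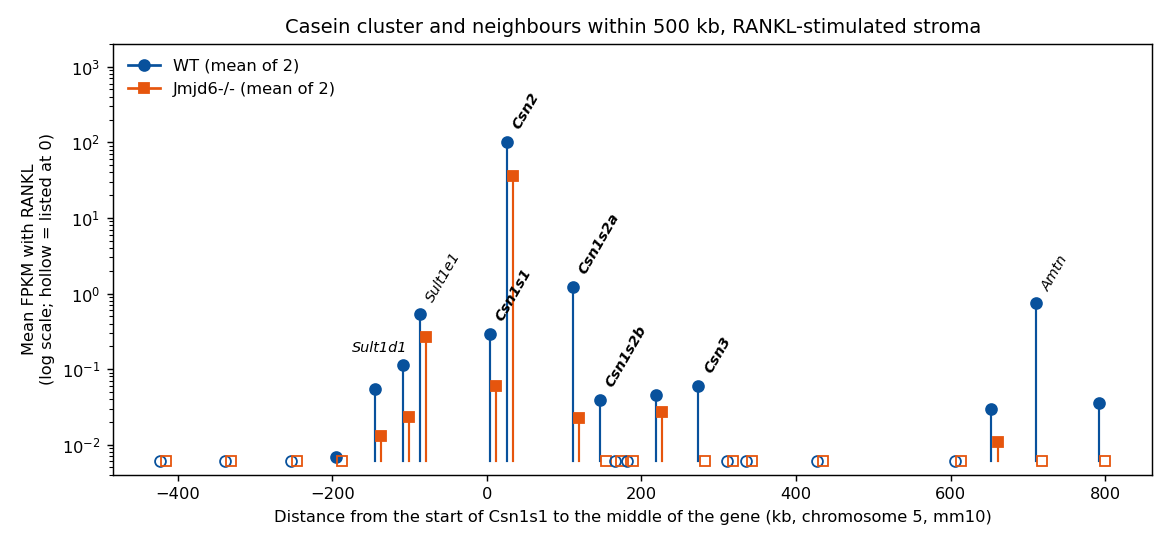
Mean FPKM with RANKL (log axis, hollow points at 0) of the casein genes and their neighbours against distance from the start of Csn1s1 in kb, with WT drawn 4 kb to the left and Jmjd6-/- 4 kb to the right of the middle of each gene. Csn2 stands out at about 100 FPKM, and 10 of the 18 other entries were at 0 in every library (1700066N21Rik, which shares the locus of Csn3, is not drawn).

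Promoter windows of RefSeq (GRCm38.p6, the assembly of mm10) were searched for the palindromic motif TTCNNNGAA, the form of site that Stat5 is known to bind. Each window runs from 250 bases before to 50 bases after the RefSeq start, and 5 of the 7 genes had one. Csn1s2b and Csn3 had none. The motif was found in 3 of these 5 (Csn1s1, Csn2 and Csn1s2a) and in 8.30% of all 32851 windows. The match began 100 bases before the RefSeq start of Csn1s1 and 93 bases before that of Csn2. For Csn1s2a it began at base 21 after the RefSeq start, which is 97 bases before the start of the gene in the expression table. No match was found in the windows of Wap and Lalba. A match is a description of the letters and not a measured site. As Csn1s2b and Csn3 had no window, whether a match goes with expression among the caseins was not tested. The sequences around the 3 matches are shown. They are the 250 bases before the start of Csn1s1 (chr5:87665958-87666207, plus strand), the 250 bases before the start of Csn2 (chr5:87699426-87699675, minus strand) and 30 bases around the match of Csn1s2a (chr5:87774460-87774489, plus strand), with the match in capitals.
Csn1s1: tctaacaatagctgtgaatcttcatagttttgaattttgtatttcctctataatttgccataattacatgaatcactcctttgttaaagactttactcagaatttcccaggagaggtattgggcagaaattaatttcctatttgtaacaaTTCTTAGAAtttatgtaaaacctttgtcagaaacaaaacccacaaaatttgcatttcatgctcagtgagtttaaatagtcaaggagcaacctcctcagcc
Csn2: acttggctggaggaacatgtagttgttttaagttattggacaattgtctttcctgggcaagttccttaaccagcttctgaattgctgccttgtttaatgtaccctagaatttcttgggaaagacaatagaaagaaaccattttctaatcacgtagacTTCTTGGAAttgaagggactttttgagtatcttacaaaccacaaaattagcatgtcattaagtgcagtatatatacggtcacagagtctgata
Csn1s2a: ttatagtgctTTCTTAGAAttacaatgact

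Among 22 other genes of milk and mammary secretion, 18 were tested. Higher with RANKL were 4 of the 18, beside 10.5% of all genes, and none was lower by limma. At an unadjusted p under 0.05 by limma, 8 were higher and 1 lower, beside 17.9% and 11.9% of all genes. Without the first or without the second WT RANKL library, 7 were higher, beside 13.5% and 13.6% of all genes in those fits. The median log2 change over the 18 was 0.50, against -0.02 over all genes. Lpo, the lactoperoxidase of milk and saliva, rose most, from 0.877 and 1.63 FPKM without RANKL to 22.2 and 30.5 FPKM in WT and 30.2 and 26.2 FPKM in Jmjd6-/- stroma (log2 change 4.38, SE 0.21, adjusted p = 6.82e-05). In contrast to Csn2, the stimulated libraries of the 2 genotypes overlapped for Lpo (log2 ratio 0.11, SE 0.20, adjusted p = 0.822). Muc1, a mucin of the apical membrane, was at 0.329 and 0.101 FPKM without RANKL, at 3.54 and 2.77 FPKM in WT and at 1.36 and 1.38 FPKM in Jmjd6-/- stroma with RANKL (log2 change 2.89, SE 0.20, adjusted p = 0.000322). Its genotype ratio of -1.13 (SE 0.25) did not pass (adjusted p = 0.0841). Pigr, the receptor that carries IgA into secretions, changed by 2.45 (SE 0.36, adjusted p = 0.0064) and Slc34a2, a phosphate transporter, by 1.48 (SE 0.23, adjusted p = 0.00724).

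Between genotypes under RANKL, 1 of these 18 genes was lower in Jmjd6-/- stroma, beside 1.82% of all genes, and 1 was higher, beside 0.516% of all genes. At an unadjusted p under 0.05 by limma, 8 were lower and 3 higher, beside 12.3% and 6.52% of all genes. The list was chosen with earlier results of these data known, so these counts are a description. Without the first WT RANKL library, 6 were lower (10.9% of all genes in that fit) and 2 higher (14.2%), and without the second 2 were lower (0.937%) and 2 higher (1.31%). The median log2 ratio was -0.33, against 0.01 over all genes. Saa3, an acute-phase serum amyloid, was at 17.9 and 23.2 FPKM in WT and at 2.41 and 1.72 FPKM in Jmjd6-/- stroma after RANKL (log2 ratio -3.26, SE 0.23, adjusted p = 0.026). Without RANKL, Saa3 was at 5.14 FPKM in WT and at 2.12 FPKM in Jmjd6-/- stroma. Ltf, the iron-binding lactoferrin, was at 0.568 and 0.906 FPKM in WT and at 4.76 and 3.89 FPKM in Jmjd6-/- stroma with RANKL (log2 ratio 2.43, SE 0.28, adjusted p = 0.028). The same order was seen for Ltf without RANKL, at 0.867 and 6.996 FPKM. Its call was lost without either Jmjd6-/- RANKL library, with log2 ratios of 2.28 and 2.57. B4galt1, named outside the rule because it forms lactose synthase with Lalba, was at 19.2 to 23.8 FPKM in all 6 libraries, while Lalba was at 0 in 5 of them.

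**Figure D4:**
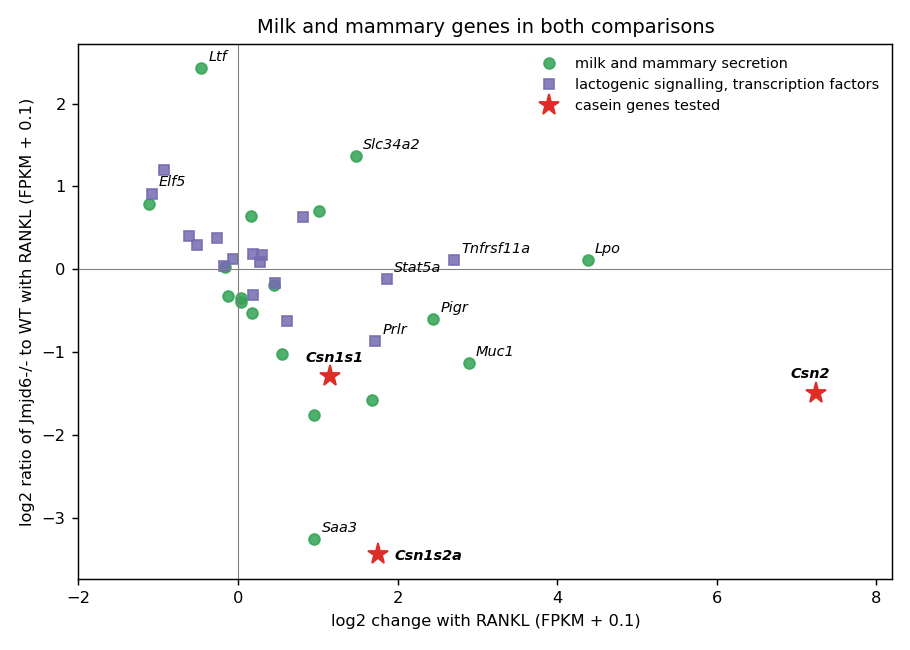
Log2 ratio of the stimulated genotypes (Jmjd6-/- over WT) against log2 change with RANKL, both on FPKM + 0.1, for the tested genes of the milk and mammary secretion list (circles), the lactogenic signalling and transcription factor list (squares) and the 3 tested casein genes (stars), with names for genes that passed in a comparison. Csn2 lies farthest to the right at 7.24, Csn1s2a lowest at -3.44, and Lpo near 0 on the vertical axis at 4.38.

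Of 18 genes that relay the lactogenic signal or act as transcription factors in the mammary gland, 17 were tested, and Erbb4, at most at 0.0257 FPKM, was not. Higher with RANKL were 3 of the 17, beside 10.5% of all genes, and lower was 1, beside 4.11% (median log2 change 0.19). Without the first WT RANKL library, 5 were higher (13.5% of all genes in that fit) and 4 lower (8.73%), and without the second 3 were lower (9.30%). Stat5a, a transducer of prolactin signalling, rose from 2.71 and 3.32 FPKM to 12.2 and 11.1 FPKM in WT and 12.1 and 9.54 FPKM in Jmjd6-/- stroma (log2 change 1.86, SE 0.15, adjusted p = 0.000635). Stat5b, its close homologue, was at 5.97 to 7.85 FPKM in all libraries (log2 change -0.07, SE 0.15). Prlr, the prolactin receptor, was at 0.155 and 0.127 FPKM without RANKL, at 1.36 and 0.682 FPKM in WT and at 0.501 and 0.471 FPKM in Jmjd6-/- stroma with RANKL (log2 change 1.72, SE 0.34, adjusted p = 0.02). The call on Prlr was lost without either Jmjd6-/- RANKL library, with log2 changes of 1.75 and 1.78. Tnfrsf11a, which encodes RANK itself, rose by 2.70 (SE 0.14, adjusted p = 8.36e-05), from 1.84 and 2.41 FPKM to between 12.6 and 16.1 FPKM.

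Elf5, a transcription factor of the mammary alveolar lineage, moved the other way. It was at 2.41 and 3.85 FPKM without RANKL, at 1.03 and 0.947 FPKM in WT and at 1.92 and 1.97 FPKM in Jmjd6-/- stroma with RANKL (log2 change -1.08, SE 0.17, adjusted p = 0.00792). Between genotypes under RANKL, none of the 17 genes passed by limma (3 at an unadjusted p under 0.05, all higher in Jmjd6-/- stroma, beside 6.52% of all genes). Without the first WT RANKL library 4 were higher, beside 14.2% of all genes in that fit. The median log2 ratio over the 17 genes was 0.12. Stat5a had a log2 ratio of -0.12 (SE 0.17, adjusted p = 0.782), Prlr of -0.86 (SE 0.38, adjusted p = 0.311) and Elf5 of 0.91 (SE 0.20, adjusted p = 0.0848).

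Aire, whose transcript marks the mTECs that display tissue antigens, rose with RANKL in both genotypes. It was at 0.142 and 0.473 FPKM without RANKL, at 78.0 and 79.7 FPKM in WT and at 75.1 and 67.1 FPKM in Jmjd6-/- stroma with RANKL. Relative to the Aire transcript in the same library, Csn2 was at 1.31 and 1.25 in WT and at 0.516 and 0.493 in Jmjd6-/- stroma with RANKL. The ratio is free of scaling between libraries. As the Aire transcript differed little between the stimulated genotypes, the ratio restates the difference in Csn2. It is not a ratio to Aire protein. The study reports that without Jmjd6 the amount of Aire transcript was comparable, while more of it retained an intron and Aire protein was markedly reduced. Of the 8 markers of mammary luminal epithelium, the keratins Krt8 and Krt18, which thymic epithelium also expresses, made up nearly the whole sum. The mammary secretory gene Glycam1 was above 0 in 1 library only (0.195 FPKM), and Lalba was at 0 in every stimulated library. Of the rest of the list, Csn2, Prlr and, from few fragments, Wap were higher with RANKL in WT stroma, and Elf5 was lower. As Csn2, Wap and Lalba are themselves among the milk protein genes followed here, the list is no independent marker of a cell type.

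**Figure D5:**
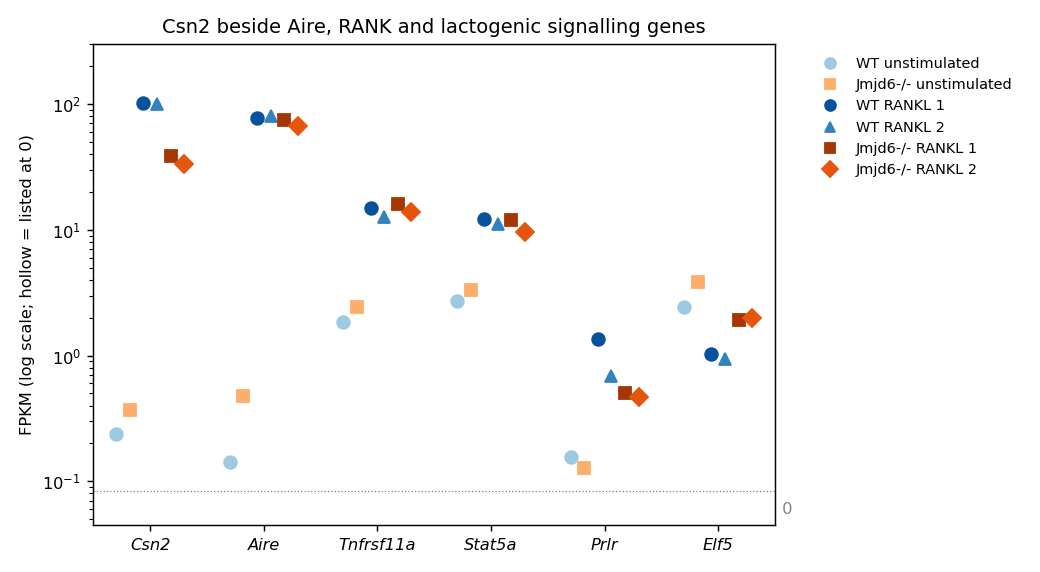
FPKM on a log axis of Csn2, Aire, Tnfrsf11a, Stat5a, Prlr and Elf5, with 1 point per library. The Csn2 values of the stimulated genotypes lie apart (99.3 and 102 against 33.1 and 38.7 FPKM), while those of Tnfrsf11a and Stat5a overlap between genotypes.

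The genes most like Csn2 and Csn1s2a were found by the Pearson correlation of log2(FPKM + 0.1) over the 6 libraries among 12586 other genes that averaged 1 FPKM or more. The 6 points include the RANKL step that many genes share, so the correlation is a description. Most like Csn2 (r = 0.999) was Itln1, an intestinal lectin, at 0.0320 and 0.0626 FPKM without RANKL, at 4.55 and 5.38 FPKM in WT and at 2.90 and 2.15 FPKM in Jmjd6-/- stroma with RANKL. Btnl1, a butyrophilin-like gene of the gut epithelium, Serpinb1a, Pip5k1b and Tmem173 followed. In these 5 genes the Jmjd6-/- mean under RANKL was between 47.6% and 74.8% of WT, above the 35.9% of Csn2. Most like Csn1s2a (r = 0.994) was Cercam, followed by Mgarp, Alpl, Tmprss2 and Eps8l2. Of these, Mgarp came closest to Csn1s2a in what was left without Jmjd6, at 2.59 and 3.49 FPKM in WT and 0.0725 and 0.0491 FPKM in Jmjd6-/- stroma with RANKL, or 2.00% of WT. Alpl, the tissue-nonspecific alkaline phosphatase, was left at 20.6% of WT, and the other 3 at 51.0% to 60.5%.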

How the data were processed

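The authors prepared poly-A RNA libraries with the TruSeq RNA v2 kit, sequenced them in 101-bp paired-end mode, mapped filtered reads to mm10 with TopHat 2.0.10 and computed FPKM per gene with Cufflinks 2.1.1, correcting for multi-mapped reads and naming a stranded library (the kit marks no strand). The deposited FPKM values were used as given. Of the sample columns, 0 were left unused. Members and gene lists were chosen with earlier results of these data known.

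The 15894 genes averaging 0.1 FPKM or more were fitted as log2(FPKM + 0.1) with limma 3.58.1 in R 4.3.3, allowing for a mean-variance trend, and p was adjusted by Benjamini and Hochberg's method over all genes tested (threshold 0.05). RANKL was fitted over 6 libraries with genotype as a term. Genotype under RANKL and the difference in response were contrasts of 4 condition means. On simulated data with 15894 genes, 100 of 100 genes changed by 3 on the log2 scale were recovered for RANKL and 94 of 100 for genotype, with 3 and 4 unchanged genes called.

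Fragments were estimated from FPKM steps below 0.15 FPKM and transcript length less 160 bp. Table starts, which count from 0, were converted to 1-based positions. Named were all 7 members, the listed genes that passed, 5 signalling genes, the casein neighbours and the 5 genes most like Csn2 and Csn1s2a each. The alternatives concerned the added constant, the filter, the trend, scaling, each RANKL library, the replicate number, the fit of the 4 RANKL libraries and the depth. Leaving out libraries for shares of WT, and other constants for the ratio to Csn2, were chosen after seeing the data.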

Additional observations from a re-analysis of the deposited data

How the results depend on the processing

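Over all alternatives that were run, Csn2 kept its call with RANKL (log2 change 5.55 to 7.61), and the log2 ratio of genotypes kept its sign for Csn2 (-1.60 to -1.37) and Csn1s2a (-5.69 to -1.11). With 0.01 added to FPKM, milk protein genes higher with RANKL were 2 and those lower in Jmjd6-/- stroma 1, genes lower in Jmjd6-/- stroma were 180, and the Jmjd6-/- minus WT difference in the log2 ratio of Csn1s2a to Csn2 was -4.20. With 1 added it was 0.35. Without a filter, 788 genes were higher and 299 lower with RANKL, 1 milk protein gene (Lalba, at 0 in every stimulated library) and 83 genes had a smaller response in Jmjd6-/- stroma, 0 milk protein genes were lower and 1 gene each was lower and higher in Jmjd6-/- stroma. There, 2 other milk and mammary genes were higher with RANKL, and 0 of that list and 0 casein neighbours passed between genotypes. At a mean of 1 FPKM, 1 milk protein gene and 172 genes were lower in Jmjd6-/- stroma, and 0 casein neighbours were left to pass in either comparison. Without the trend, 398 genes were lower with RANKL. The cause of these shifts was not tested, other than the genes lost to the filter.

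Leaving out each RANKL library gave 979 to 2165 genes higher and 153 to 1478 lower with RANKL, 68 to 1737 lower and 20 to 2254 higher in Jmjd6-/- stroma, 0 to 2 milk protein genes lower in Jmjd6-/- stroma, and 0 to 1 genes with a smaller response. For other milk and mammary genes it gave 4 to 7 higher and 0 to 1 lower with RANKL, and 1 to 6 lower and 0 to 2 higher in Jmjd6-/- stroma. For lactogenic genes it gave 2 to 5 higher and 1 to 4 lower with RANKL, and 0 to 4 higher in Jmjd6-/- stroma. Among listed genes, values near 0 turned sign there: the genotype ratios of Lpo (-0.12 to 0.34), Stat5a (-0.28 to 0.050), Stat5b (-0.071 to 0.32) and Tnfrsf11a (-0.0071 to 0.23) and the RANKL change of Stat5b (-0.13 to 0.033).

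The replicate numbers pair nothing (correlation of deviations -0.0778 over 12587 genes). With a replicate block, 315 genes were lower with RANKL, 1 milk protein gene (Csn2) and 67 genes had a smaller response, 1081 genes were lower in Jmjd6-/- stroma and 396 higher, with 5 lower and 4 higher of the other milk and mammary genes and 1 higher of the lactogenic genes. The RANKL change of Stat5b was 0.031 there.

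The main depth estimates exceed what the number of reads allows, if that number counts both reads of a pair. At the lower depth that it then allows, limits are 1.56 times higher. Csn1s2a rests there on 28.3 instead of 44.1 fragments in WT, and its share of WT is at most 23.3%. The interval for the share of Csn1s1 widens there to 2.11% to 89.8%. Depth sets what can be said of Wap, Csn3, Csn1s2b and Lalba.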
